A study of Homo sapiens with 4 samples.

Results

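The genes described here are 9 long non-coding RNA genes measured in HCT116 cells, a human colorectal cancer line: MALAT1, NEAT1, KCNQ1OT1, NORAD, OIP5-AS1, CYTOR, H19, TUG1 and PVT1. They were taken by name from a list of 10 well-known long non-coding RNAs, out of 34826 genes in the table, of which 8842 are of a long non-coding type. The remaining name, CCAT1, is not analysed here. The cells carry an auxin-inducible degron on Ki-67, a protein found in dividing cells, where it covers chromosomes in mitosis, so that an auxin triggers destruction of the tagged protein. Control samples (n = 2) had no treatment and IAA samples (n = 2) received 0.5 mM indole acetic acid (IAA) for 24 h. Both groups carry the tag, each sample was pooled from 3 dishes grown for 2 days, and mRNA was taken on oligo-dT beads. Libraries of treated cells without the tag are not part of the groups, so effects of the auxin and effects of losing Ki-67 cannot be told apart. Whether the line is a single clone is not given in the sources used here.

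Long non-coding RNAs are transcripts that act as RNA or through the act of being transcribed, and where they sit in the cell frames what they do. MALAT1 lies in nuclear speckles, which store splicing factors, and NEAT1 is the scaffold of paraspeckles, nuclear bodies built on its long isoform. KCNQ1OT1 stays at its own imprinted locus, where it silences neighbours in cis. NORAD and OIP5-AS1 (also called Cyrano) act mainly in the cytoplasm, where NORAD binds PUMILIO proteins and OIP5-AS1 directs the decay of the microRNA miR-7. H19 is an imprinted transcript that hosts a microRNA, PVT1 neighbours the oncogene MYC, and TUG1 is found in both compartments.

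Sequence features of these RNAs are shown first, and those of MALAT1, NEAT1 and CYTOR bear on how the RNAs are captured and counted. Mature MALAT1 and the long NEAT1 isoform are cut by RNase P and end in a genome-encoded A-rich tract in place of a poly(A) tail, and the libraries were selected on oligo-dT. Capitals mark 11 letters, AAAAAGCAAAA, that both tracts share. In MALAT1-202 (positions 8315 to 8370 of 8708, GRCh38 chr11:65506076-65506131, plus strand) the shown stretch runs past the cut into the small RNA that follows. In NEAT1-202 (positions 22699 to 22743 of 22743, chr11:65445496-65445540, plus strand) the tract is the annotated end.
MALAT1: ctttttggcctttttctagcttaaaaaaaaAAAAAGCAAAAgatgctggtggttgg
NEAT1: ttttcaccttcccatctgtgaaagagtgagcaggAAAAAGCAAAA
Searched on the transcript strand, these 11 letters occur in the last 400 bases of 0.129% of 183912 GENCODE transcripts.

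NORAD is shown for its PUMILIO elements, capitalised here as TGTANATA, of which a search of the transcript strand found 15 in its 5339 bases. Of 4358 GENCODE transcripts within 10% of that length, 42.9% held at least 1 match, the median was 0 and the maximum was 16, with 3 transcripts at 15 or more. The first 5 elements from the 5′ end lie on chromosome 20, minus strand (GRCh38), the last of them at chr20:36049495-36049518. Elements 4 and 5 lie next to each other and their shown stretches overlap.
NORAD element 1: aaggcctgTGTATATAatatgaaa
NORAD element 2: cactactgTGTATATAgttgacaa
NORAD element 3: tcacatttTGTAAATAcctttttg
NORAD element 4: cttatctgTGTATATAgtgtacat
NORAD element 5: gtatatagTGTACATAaaggacag

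OIP5-AS1 is shown for its miR-7 site at positions 2865 to 2898 of transcript OIP5-AS1-201 (GRCh38 chr15:41300570-41300603, plus strand). Capitals in the site mark the letters that pair with miR-7, 8 at the seed side and 14 upstream of it, with 4 unpaired site letters between. Capitals in the microRNA (RefSeq, GRCh38.p14) mark its seed, bases 2 to 8. Matches to this seed occur 3 times in the transcript, and the site shown is the match with the longest paired stretch upstream.
OIP5-AS1 site: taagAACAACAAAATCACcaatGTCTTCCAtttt
hsa-miR-7-5p: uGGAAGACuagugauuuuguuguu

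The hosted microRNA of H19 is miR-675, and CYTOR hosts miR-4435, which is shown because an identical copy lies in MIR4435-2HG on the same chromosome. Capitals again mark the seed, and the sequences are from RefSeq on GRCh38.p14.
hsa-miR-675-5p in H19: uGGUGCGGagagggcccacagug
hsa-miR-4435 in CYTOR: aUGGCCAGagcucacacagagg
hsa-miR-4435 in MIR4435-2HG: aUGGCCAGagcucacacagagg
Of the stretches of 150 bases in CYTOR transcripts, 6.40% were also found letter for letter in MIR4435-2HG transcripts, and 8.63% of those of MIR4435-2HG in CYTOR. Reads that lie wholly in such stretches match both genes. How they were counted is not given in the sources used here, so both values are uncertain.

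Values are TPM, the authors' reads per gene length scaled to 1000000 in each library. The length is the sum of all exonic bases, which can exceed any single transcript (5493 bases for PVT1 with a longest transcript of 1699, and 17693 for CYTOR with 7512). Levels of different genes depend on that length and on capture by oligo-dT, which was not measured for each gene. Values per library are given in the order replicate 1, replicate 2, and treated means with IAA. Between 38733981 and 49448043 reads per library were recovered from the table. Epithelial markers matched the line (EPCAM 466 to 480 TPM), whereas CDX1, VIL1 and CEACAM5 stayed under 0.3 TPM in every library. Markers of other cell types summed to under 1 TPM for blood cells, endothelium and hepatocytes. COL1A1 of the fibroblast list stood at 13.3 to 14.8 TPM and SYT1 of the neuron list at 59.4 to 67.2 TPM. Differences were tested with limma on log2(TPM + 1) over 17896 genes (1 TPM or more in 2 or more libraries), with Benjamini-Hochberg adjustment, and a value past the threshold has an adjusted p under 0.05.

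The 9 RNAs spanned more than 3 orders of magnitude per length, and their order was largely the same in all libraries, within those limits on comparing genes. NORAD was the most abundant, with a mean of 245 TPM over the 4 libraries (rank 431 of all genes and rank 7 of the long non-coding types). MALAT1 followed at 96.1 TPM (rank 22 of the long non-coding types), NEAT1 at 70.6 TPM, OIP5-AS1 at 41.8 TPM, TUG1 at 37.5 TPM and PVT1 at 18.8 TPM. H19 at 1.56 TPM, CYTOR at 1.44 TPM and KCNQ1OT1 at 0.186 TPM were far lower. Neighbours in this order whose library values overlapped were MALAT1 and NEAT1, OIP5-AS1 and TUG1, and H19 and CYTOR, the last pair keeping its order in 3 of 4 libraries. All other neighbours were separated in every library, PVT1 from H19 by 12.1-fold.

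**Figure D1:**
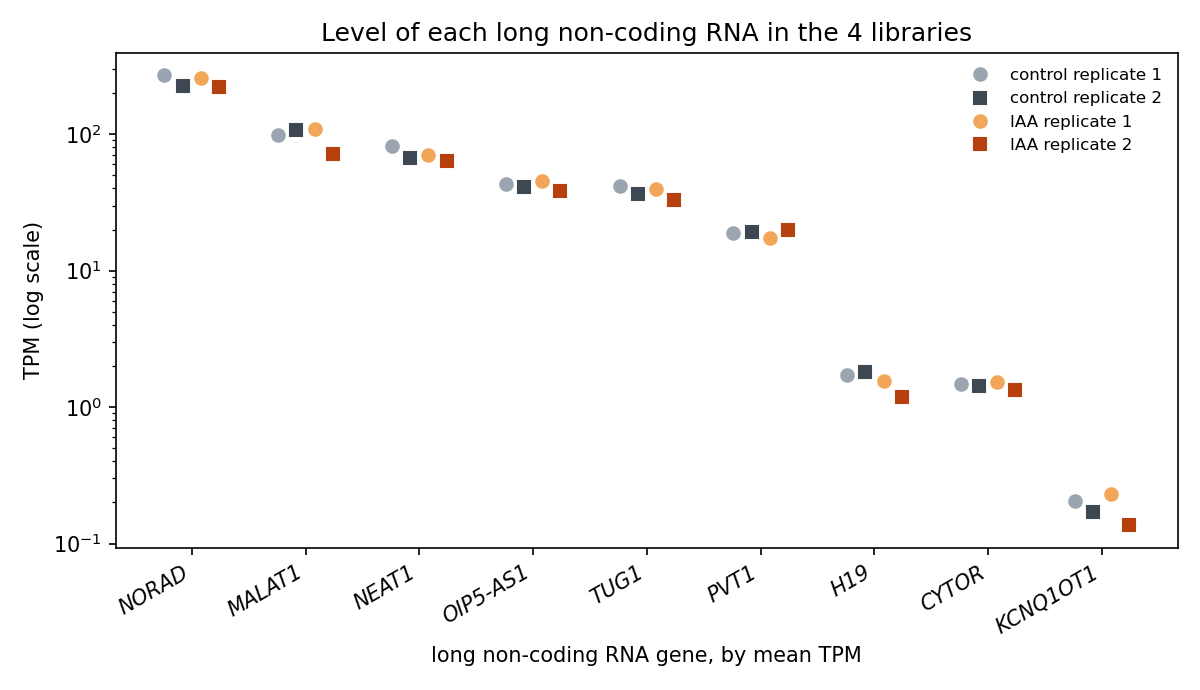
TPM of the 9 long non-coding RNAs (log axis) in each control and IAA library, one point per library and no error bars. The library values overlap between MALAT1 and NEAT1, OIP5-AS1 and TUG1, and H19 and CYTOR, and IAA replicate 2 is the lowest point for 8 of the 9.

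None of the 8 RNAs that entered the test passed the threshold between IAA and control. They counted 0 higher and 0 lower, as did all 17896 genes tested (0% called in either direction). At an unadjusted p under 0.05 there were 0 of the 8, beside 4.15% of all genes, and limma voom on the recovered reads called 1 gene of 18965 as higher (0.00527%), which was ALDH1A3. All 8 log2 differences were negative, where 55.5% of all genes were. Their median was -0.075, beside -0.017 over all genes tested and -0.0056 over the 3260 long non-coding genes tested. The shared sign depended on the libraries and the scaling. Without IAA replicate 2 the median of the 8 was 0.030, and OIP5-AS1 was at 0.0097 with median-of-ratios factors. Both IAA libraries lay below both controls for 1 of the 9 RNAs, beside 17.7% of all genes tested, and above both controls for 0 of the 9, beside 11.8%.

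**Figure D2:**
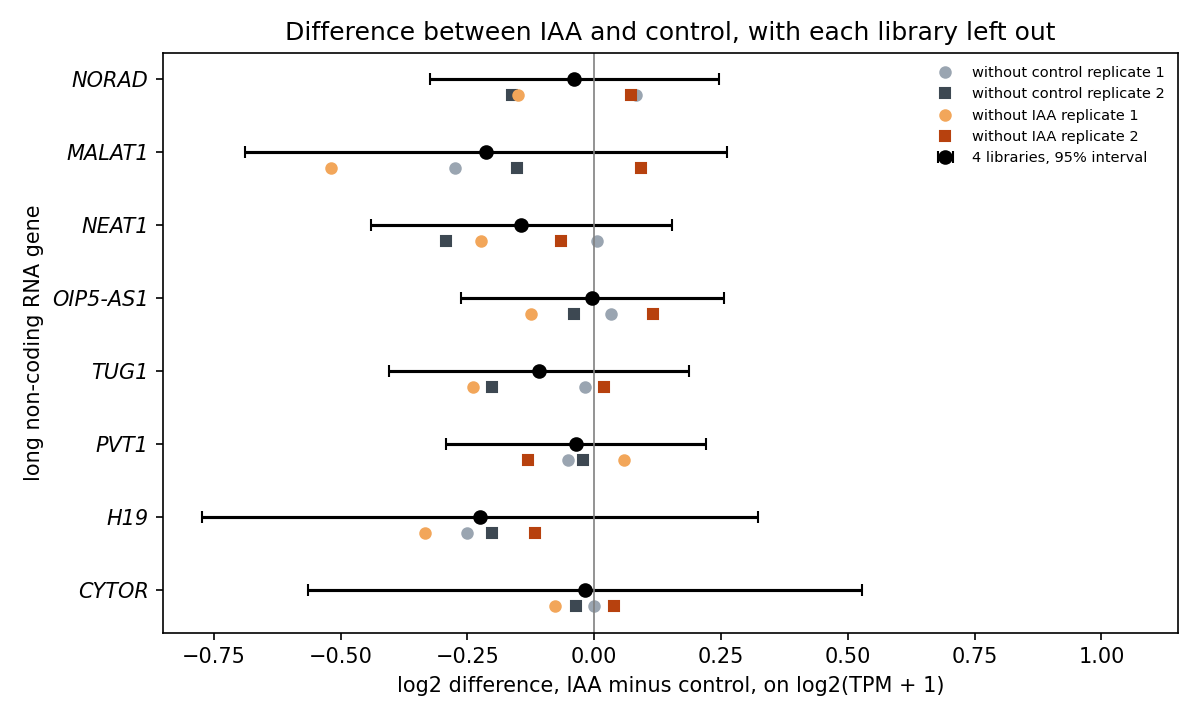
Log2 difference between IAA and control on the log2(TPM + 1) scale for the 8 tested RNAs, as a black point with its 95% interval from limma, and the same difference with each library left out as coloured points. Every interval from the 4 libraries includes 0, and the points for MALAT1 spread widest, from -0.52 to 0.092.

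Of the 8 tested RNAs, MALAT1 had the widest gap between IAA replicates. MALAT1 (ENSG00000251562.8, GRCh38 chromosome 11, 65497688 to 65506516, plus strand, 8829 exonic bases) measured 98.0 and 107 TPM untreated, against 109 and 71.0 TPM treated. IAA replicate 2 stood below the other libraries and IAA replicate 1 above them, so the groups overlap. The means were 102 ± 6.12 TPM untreated and 90.0 ± 26.9 TPM treated (SD, n = 2). The log2 difference was -0.21 with a standard error of 0.19 (95% interval -0.69 to 0.26, limma adjusted p = 0.999). The IAA replicates differed by 0.61 on the log2 scale, more than 96.9% of 12065 genes whose mean reached 5 TPM, and the controls by 0.12.

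The call for MALAT1 rested on which IAA library was kept. Without IAA replicate 1 the log2 difference was -0.52 and passed the threshold (limma adjusted p = 2.5e-05), in a fit that called 1.79% of 17348 genes lower and 0.674% higher. Without IAA replicate 2 it was 0.092 (limma adjusted p = 0.775), in a fit that called 3.28% of 17488 genes lower and 4.04% higher. In both fits only the controls show spread between replicates, and limma's prior was infinite. The variance was then a trend over all genes tested, so these adjusted p-values do not measure the spread of MALAT1 itself. Between 8037 and 14603 reads were counted on MALAT1, and the counting interval of IAA replicate 2 was 69.5 to 72.6 TPM (95% exact Poisson, which covers counting error only). Of its exonic bases, 4.49% are shared with genes on the opposite strand, and the use of strand in counting is not given in the sources used here.

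NEAT1 starts the same chromosomal stretch, 52147 bases upstream of MALAT1 (ENSG00000245532.8, chromosome 11, 65422774 to 65445540, plus strand). Its values were 82.1 and 66.6 TPM untreated, against 70.7 and 63.2 TPM treated. Control replicate 1 was the highest and the other libraries lay within a narrow range, with IAA replicate 1 above control replicate 2. The means were 74.3 ± 10.9 and 66.9 ± 5.29 TPM (SD, n = 2), a log2 difference of -0.14 with a 95% interval from -0.44 to 0.15 (limma adjusted p = 0.999). The controls differed by 0.30 on the log2 scale, more than 94.2% of genes whose mean reached 5 TPM. Without control replicate 1 the log2 difference was 0.0045. The exonic length of 22767 bases is close to the 22743 bases of the long isoform, within which the short isoform lies, so the gene's value does not separate the paraspeckle scaffold from the short RNA.

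KCNQ1OT1 (ENSG00000269821.1, chromosome 11, 2608328 to 2699994, minus strand) was the lowest of the 9 and did not reach the level needed for the test. It measured 0.207 and 0.170 TPM untreated, against 0.230 and 0.136 TPM treated. Because the gene spans 91667 bases, such low values still came from 222 and 242 reads without IAA, 251 and 160 with it. The IAA libraries were the highest and the lowest of the 4. Their counting intervals, 0.203 to 0.261 and 0.116 to 0.159 TPM, did not overlap, so the replicates differed by more than counting error. By limma voom on recovered reads the log2 difference was -0.066 with a 95% interval from -0.49 to 0.36 (limma adjusted p = 0.998). KCNQ1OT1 lies antisense within KCNQ1, and 1.23% of its bases are exonic in opposite-strand genes. That share leaves out the introns of KCNQ1, and the use of strand in counting is not given in the sources used here. Whether reads from unspliced KCNQ1 RNA were counted on KCNQ1OT1 was not tested.

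Of the mainly cytoplasmic RNAs, NORAD was the most abundant. NORAD (ENSG00000260032.1, chromosome 20, 36045622 to 36050960, minus strand) measured 269 and 227 TPM untreated, against 259.8 and 222 TPM treated. Both libraries numbered 1 were above both libraries numbered 2, so the spread within each group was larger than the difference between groups. The means were 248 ± 29.8 and 241 ± 26.4 TPM (SD, n = 2), a log2 difference of -0.039 with a 95% interval from -0.32 to 0.25 (limma adjusted p = 0.999). NORAD shares no exonic base with another annotated gene, and it was counted on 15227 to 18791 reads.

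OIP5-AS1 (ENSG00000247556.6, chromosome 15, 41283990 to 41309737, plus strand) measured 42.9 and 40.7 TPM untreated, against 45.4 and 38.2 TPM treated. The IAA libraries enclosed both controls. The means were equal to 3 digits, 41.8 ± 1.53 TPM untreated and 41.8 ± 5.03 TPM treated (SD, n = 2), and the log2 difference of -0.0039 had a 95% interval from -0.26 to 0.26 (limma adjusted p = 0.999). Its sign was positive with median-of-ratios scaling (0.0097) and after removing mitochondrial genes (0.020). OIP5-AS1 shares 470 exonic bases with OIP5 on the opposite strand.

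CYTOR, described as a cytoplasmic RNA linked to proliferation (ENSG00000222041.11, chromosome 2, 87454781 to 87636740, plus strand), was low, at 1.48 and 1.42 TPM untreated, against 1.52 and 1.33 TPM treated. Again the IAA libraries enclosed the controls. The log2 difference was -0.019 with a 95% interval from -0.57 to 0.53 (limma adjusted p = 0.999). Its copy MIR4435-2HG measured 2.45 and 2.01 TPM untreated, against 2.65 and 2.49 TPM treated, a log2 difference of 0.15 with a standard error of 0.19.

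H19 was the only one of the 9 with both IAA libraries below both controls. H19 (ENSG00000130600.18, chromosome 11, 1995176 to 2001470, minus strand) measured 1.71 and 1.80 TPM untreated, against 1.54 and 1.18 TPM treated. Few reads stood behind them, 58 and 81 without IAA, 53 and 44 with it. The counting interval was 1.43 to 2.24 TPM in control replicate 2 and 0.861 to 1.59 TPM in IAA replicate 2. The log2 difference was -0.23 with a standard error of 0.22 (95% interval -0.77 to 0.32, limma adjusted p = 0.999). IGF2, the growth factor gene imprinted together with H19, was also low, at 0.866 ± 0.036 TPM untreated and 0.740 ± 0.091 TPM treated (SD, n = 2), and was not tested.

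TUG1 and PVT1 are found in both nucleus and cytoplasm. TUG1 (ENSG00000253352.9, chromosome 22, 30969245 to 30979395, plus strand) measured 41.5 and 36.4 TPM untreated, against 39.4 and 32.8 TPM treated. As with NORAD, both libraries numbered 1 were above both numbered 2. The log2 difference was -0.11 with a 95% interval from -0.41 to 0.19 (limma adjusted p = 0.999), and it was 0.020 without IAA replicate 2. Of its exonic bases 14.4% are also exonic in other genes, the largest share among the 9.

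PVT1 (ENSG00000249859.9, chromosome 8, 127794533 to 128101253, plus strand) measured 18.9 and 19.3 TPM untreated, against 17.3 and 19.9 TPM treated. The IAA libraries lay on either side of the controls, and it was the only RNA of the 9 with its lowest value outside IAA replicate 2. The log2 difference was -0.037 with a 95% interval from -0.29 to 0.22 (limma adjusted p = 0.999), and it was 0.058 without IAA replicate 1.

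The differences between replicates varied with gene length, taken as exonic length, and most of these genes are long by that measure. By exonic length, 8 of the 9 genes exceed 5000 bases and 5 exceed 10000. Single transcripts can be shorter. The longest has 7469 bases for TUG1, 8829 for OIP5-AS1, 7512 for CYTOR and 1699 for PVT1. IAA replicate 2 was the lowest library for 8 of the 9 RNAs, beside 32.1% of all genes tested. That share was 20.9% of genes of over 1000 to 2500 bases, 39.98% of genes of over 5000 to 10000 bases and 58.1% of the 1465 genes over 10000 bases. Among genes over 10000 bases, replicate 1 exceeded replicate 2 by a median of 0.16 on the log2 scale in control and 0.15 in IAA. For genes of over 1000 to 2500 bases the medians were 0.016 and -0.047, and for genes up to 1000 bases 0.012 and 0.17.

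With the length trend removed from each library, an adjustment chosen after seeing the data, the replicate difference became smaller for 3 of the 8 RNAs in control and 6 of the 8 in IAA, and larger for the others. The control difference of NEAT1 was 0.11 in place of 0.30, and the IAA difference of TUG1 was 0.14 in place of 0.26. In the other direction, the control difference of MALAT1 was -0.24 in place of -0.12, that of PVT1 -0.12 in place of -0.029 and that of CYTOR -0.14 in place of 0.035. For MALAT1 the IAA replicates still differed by 0.50 on the log2 scale. The log2 differences between IAA and control were then -0.19 for MALAT1, -0.10 for NEAT1, -0.019 for NORAD and -0.086 for TUG1. None of the 8 passed the threshold, as was the case for all genes. The cause of the trend was not tested.

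**Figure D3:**
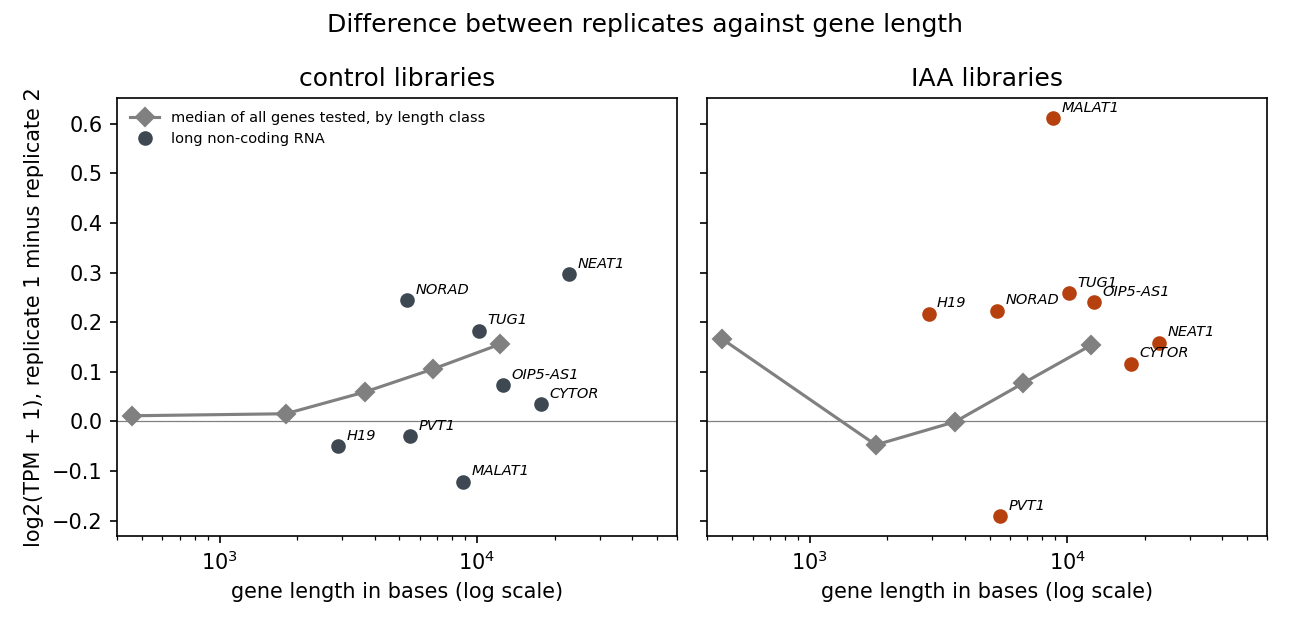
Difference between replicate 1 and replicate 2 on the log2(TPM + 1) scale against gene length (log axis), for control libraries on the left and IAA libraries on the right. Grey diamonds are medians of all genes tested in 5 length classes and coloured points are the 8 RNAs, of which MALAT1 in IAA stands farthest from the medians at 0.61.

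Proteins that work with these RNAs were then read from lists. Of 16 paraspeckle protein genes, 0 passed the threshold, 15 had negative log2 differences, beside 55.5% of all genes tested, and 5 had both IAA libraries below both controls, beside 17.7%. The list median was -0.042. HNRNPH3, an RNA-binding paraspeckle protein, had 106 ± 6.20 TPM untreated and 90.5 ± 0.711 TPM treated (SD, n = 2), a log2 difference of -0.23 (limma adjusted p = 0.999). DAZAP1, another, had 71.8 ± 3.16 and 60.6 ± 3.25 TPM and a log2 difference of -0.24. NONO, a core protein that NEAT1 binds, stood at 345 ± 11.2 and 339 ± 0.302 TPM. HNRNPK was at 595 ± 18.7 and 585 ± 25.9 TPM, and TARDBP had the one positive log2 difference, 0.014.

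Nuclear speckle genes gave no call either, with 0 of 11 past the threshold, 10 negative, beside 55.5% of all genes tested, and a median of -0.051. SRRM2, a scaffold of speckles, had 157 ± 26.3 TPM untreated and 138 ± 15.7 TPM treated (SD, n = 2), with control replicate 1 the highest at 176 TPM. SRSF2, a splicing factor stored there, had 248 ± 9.26 and 253 ± 2.26 TPM. RNPS1 and PRPF8 had log2 differences of -0.14 and -0.13. Among 7 genes for the cutting and protection of the MALAT1 and NEAT1 3′ ends, 0 passed and the median was -0.028. ELAC2, which cuts the far end of the small RNA released from MALAT1, had 50.8 ± 3.02 and 47.7 ± 2.97 TPM, and POP1, an RNase P subunit, 33.7 ± 3.66 and 32.0 ± 1.86 TPM. The RNase P subunit genes RPP38 and RPP14 had log2 differences of 0.075 and 0.072.

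Partners of NORAD differed little between the groups. All 5 log2 differences lay between 0.0010 and 0.058, where 7959 of all 17896 genes tested were positive, and 0 passed. PUM2, a PUMILIO protein that binds the elements printed above, measured 92.8 and 80.9 TPM untreated, against 99.7 and 81.7 TPM treated. Its libraries numbered 1 were the higher, as for NORAD itself. Of 9 cell cycle and chromosome stability genes linked to PUMILIO, 0 passed, 6 were positive and the median was 0.040. CCNA2, a cyclin, had 150.05 ± 1.92 and 164 ± 11.1 TPM, PCNA, the replication clamp, 315 ± 13.3 and 339 ± 14.6 TPM, and CCNB1, the mitotic cyclin, 300.4 ± 4.93 and 309 ± 15.4 TPM. CCNE1 and E2F3 had log2 differences of -0.11 and -0.013.

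**Figure D4:**
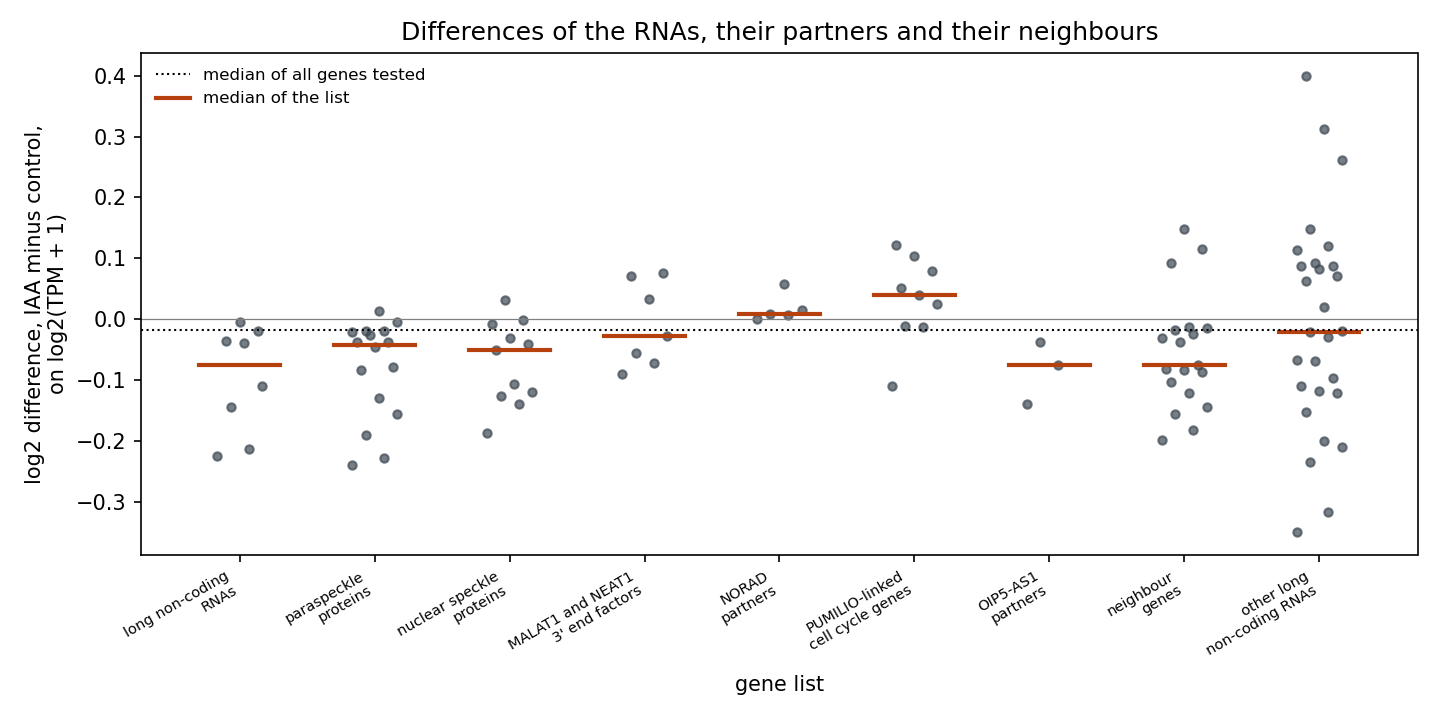
Log2 difference between IAA and control on the log2(TPM + 1) scale for each tested gene of 9 lists, one point per gene, with the list median as a red bar and the median of all genes tested as a dotted line. List medians lie between -0.076 and 0.040, and 0 points passed the threshold.

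The partner list of OIP5-AS1 held 3 genes, with 0 past the threshold, a median of -0.076 and both IAA libraries below both controls for each of the 3, beside 17.7% of all genes tested. ELAVL1 among them, an RNA-binding protein that OIP5-AS1 binds, measured 52.5 and 52.3 TPM untreated, against 50.4 and 51.6 TPM treated, a log2 difference of -0.037. OIP5, also among the 3, is counted in the neighbour list below as well, and its log2 difference of -0.076 is the median of both lists.

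Genes beside the RNAs did not pass either, with 0 of 19 tested neighbours called and a median of -0.076. Of the 19, 16 were negative, beside 55.5% of all genes tested. Both IAA libraries lay below both controls for 8, beside 17.7% of all genes tested, and above both for 2, beside 11.8%. MYC, upstream of PVT1, measured 243 and 239 TPM untreated, against 206 and 219 TPM treated, so both IAA libraries were lower. Its log2 difference was -0.18 with a standard error of 0.070 (limma adjusted p = 0.999, unadjusted 0.0415), while PVT1 itself had IAA values on both sides of the controls. At the imprinted locus of KCNQ1OT1, KCNQ1 measured 11.98 and 11.5 TPM untreated, against 10.8 and 12.5 TPM treated. CDKN1C, a growth inhibitor silenced in cis by KCNQ1OT1, had 40.1 ± 2.29 and 37.2 ± 2.29 TPM. PHLDA2, which lies farther along, had 464 ± 14.7 and 405 ± 50.8 TPM, both IAA libraries being below both controls. OIP5, which overlaps OIP5-AS1, had 50.4 ± 0.673 and 47.8 ± 2.24 TPM, and MORC2, which shares a promoter region with TUG1, 21.4 ± 1.71 and 19.1 ± 0.618 TPM.

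Other long non-coding RNAs gave no call, with 0 of 28 tested past the threshold, 13 positive, 15 negative and a median of -0.020. LINC01578 had the smallest p among them, with 26.4 and 27.0 TPM untreated, against 20.8 and 21.7 TPM treated, a log2 difference of -0.32 with a standard error of 0.086 (limma adjusted p = 0.901). In the positive direction, DLEU2, the host of miR-15a and miR-16-1, had 10.7 ± 0.071 TPM untreated and 13.0 ± 1.40 TPM treated (SD, n = 2). MIR17HG, the host of the miR-17-92 cluster, had 2.67 ± 0.406 and 3.86 ± 0.814 TPM. UCA1, above MALAT1 in each library, had 106 ± 1.66 and 111 ± 2.74 TPM, and DANCR 69.5 and 71.3 TPM untreated, against 64.3 and 74.9 TPM treated.

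Likeness of pattern was measured as the root mean square distance between centred log2(TPM + 1) values over the 4 libraries, against 6678 genes averaging 20 TPM or more. Near NEAT1 were RAP1GAP2 (0.013) and BAZ2A (0.013), both protein-coding genes. Nearest to MALAT1 were RNU6-26P, a U6 pseudogene (0.085), an RNA of the snoRNA class named RF00156 (0.092) and AC009088.2, an antisense gene (0.095). RNU6-26P measured 35.9 and 37.4 TPM untreated, against 40.9 and 29.2 TPM treated, the same order of libraries as MALAT1 except for a smaller range. With 4 libraries such likeness is a description of these values.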

How the data were processed

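The authors deposited TPM values per gene and library, with gene lengths. Builds hg38 and GRCh38.p12, and the tools DESeq2 (1.20.0) and featureCounts (1.5.2), are listed with no roles in the submitters' processing notes. The sources used here give neither the aligner nor the use of strand. Identifiers were matched to GENCODE release 29 on GRCh38, whose coordinates are printed, and the exonic length in that release equalled the deposited length for all 9 RNAs. TPM times length was a whole multiple of 1 step per library for 100% of genes (tolerance 1e-06), which gave reads. Limma 3.58.1 (R 4.3.3, eBayes with a trend, 2 residual degrees of freedom) was run on log2(TPM + 1), a scale that understates changes of low genes. P-values are two-sided, and an exact permutation test of 2 against 2 cannot go below 0.333, so none was used. Outside the fits without an IAA library, the p-values rest in part on the spread between libraries that the labels call biological replicates. In the main fit each gene's own spread (2 residual degrees of freedom) was weighted with a trend over all genes tested. That trend carried 3.93 prior degrees of freedom, so intervals and p-values do not measure the spread of a gene alone. The fit was also run on simulated counts with the same dispersion for all genes and no length trend between libraries. That run does not show how the fit behaves with the replicate differences seen here. Members, gene lists and tests were chosen with earlier results of these data known. All members were named, and from the paraspeckle, speckle, 3′ end, PUMILIO-linked and other long non-coding RNA lists the 2 genes with the smallest p in each direction and the 2 most abundant. Neighbours and partners were named freely, and the 3 nearest genes by pattern for MALAT1 and NEAT1. Some genes that meet these rules are not reported here. Names on more than 1 row were left out of lists. ALDH1A3 and SNORD14A were named after their values were seen. Alternatives changed the pseudocount, filter, scaling, unit, block and libraries.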

Additional observations from a re-analysis of the deposited data

How the results depend on the processing

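Under the alternatives that kept the 4 libraries, none of the tested RNAs passed the threshold (lowest limma adjusted p = 0.936), and signs turned only for OIP5-AS1 and CYTOR. OIP5-AS1 was 0.0097 with median-of-ratios factors, 0.020 without mitochondrial genes, 0.0084 by limma voom and 0.025 with the length trend removed, and CYTOR was 0.016 with the length trend removed. These differences lie near 0. Mitochondrial genes held 20.7% and 20.9% of TPM in the controls and 22.1% in each IAA library, and removing them rescales all other genes. The cause of the turned signs was not tested. Over all genes, 1 was higher (SNORD14A) with a mean of at least 5 TPM and 1 (ALDH1A3) by limma voom, and 0 were lower. With 1 library omitted at a time, between 0 and 707 genes were higher and between 0 and 573 lower, with all calls in the fits without an IAA library, where 1 degree of freedom is left and limma's prior became infinite. The log2 differences then ranged from -0.52 to 0.092 for MALAT1, -0.29 to 0.0045 for NEAT1, -0.13 to 0.058 for PVT1, -0.24 to 0.020 for TUG1, -0.12 to 0.12 for OIP5-AS1, -0.16 to 0.083 for NORAD, -0.33 to -0.12 for H19 and -0.077 to 0.039 for CYTOR. Their median ranged from -0.19 without IAA replicate 1 to 0.030 without IAA replicate 2. KCNQ1OT1 entered only the fits without a filter and on reads. With the replicate block the differences were as before and 0 genes were called (MALAT1 -0.21, adjusted p = 0.954). Replicate 1 minus replicate 2 correlated at -0.069 between the groups across 17896 genes, so equal numbers were not taken to pair the libraries. H19 rested on 44 to 81 reads per library and KCNQ1OT1 on 160 to 251.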
